A study of Homo sapiens with 6 samples.

Results

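The genes described here are 10 members of the ERBB system, the epidermal growth factor (EGF) receptor family with its ligands and feedback inhibitors: the receptors EGFR, ERBB2 and ERBB3, the ligands AREG, EREG, HBEGF, TGFA and NRG1, and the inhibitors ERRFI1 and LRIG1. They were taken by gene name from a count table of 58735 genes, and all 10 had a row. RNA came from Ovcar8, an established human cancer line (high-grade serous, ovary). Cells grown in RPMI-1640 medium stayed for 48 h in 5% fetal bovine serum (FBS), the untreated control group, or were kept for 48 h without serum (serum-starved), with 3 libraries per group. All 6 libraries come from this line alone, and no label states that libraries of a group were separate cultures, so p-values measure only the spread among libraries, which may be technical.

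ERBB receptors are membrane tyrosine kinases that pair with each other after ligand binding and signal through RAS and ERK and through PI3K and AKT. ERBB2 binds no known ligand and acts as a partner, while ERBB3 has a weak kinase and couples strongly to PI3K once it is phosphorylated by a partner. Ligands are made as membrane-bound precursors and shed by ADAM proteases; AREG, EREG, HBEGF and TGFA bind EGFR, and NRG1 binds ERBB3 and ERBB4. ERRFI1 (also called MIG6) blocks the kinase domain, LRIG1 lowers receptor protein, and both act as brakes that are themselves induced by receptor signalling. Serum withdrawal removes growth factors, and in many epithelial cancer lines ERBB3 transcription is known to be repressed by PI3K and AKT activity through FOXO factors.

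For reference, the upstream sequences of a receptor and one of its ligands are shown, EGFR and AREG, from RefSeq windows (GRCh38.p14) that run from 250 bases before the gene start to 50 bases after it. Only the stretch free of exons in GENCODE 29 is printed, 5′ to 3′ on the gene's strand, and capitals mark motif matches.
EGFR, chr7:55018767-55019020, plus strand: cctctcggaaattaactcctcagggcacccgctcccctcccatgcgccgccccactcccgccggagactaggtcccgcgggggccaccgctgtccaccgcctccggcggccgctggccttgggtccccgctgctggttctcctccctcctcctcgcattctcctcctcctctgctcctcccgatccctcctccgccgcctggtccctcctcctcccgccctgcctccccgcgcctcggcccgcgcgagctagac
AREG, chr4:74444886-74445133, plus strand: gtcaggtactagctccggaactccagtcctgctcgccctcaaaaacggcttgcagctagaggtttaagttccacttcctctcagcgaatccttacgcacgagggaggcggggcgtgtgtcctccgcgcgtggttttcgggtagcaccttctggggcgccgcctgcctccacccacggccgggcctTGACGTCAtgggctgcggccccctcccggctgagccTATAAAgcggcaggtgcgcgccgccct
Of the 10 members, 8 had windows that were scanned, 13 windows in all, and ERBB3 and NRG1 were not scanned. The 7 motifs, read on both strands, were CRE, spelled TGACGTCA, AP-1, a site spelled TGANTCA, ETS, a site spelled CCGGAAGT, FOXO, a site spelled GTAAACA, the TATA box, spelled TATAAA, the GC box, spelled GGGGCGGGG, and the CCAAT box. In the AREG window a CRE match began 65 bases before the start and a TATA match 29 bases before it; 1.85% of the 35116 windows of the table hold that CRE and 11.5% that TATA match. The EGFR window shown, at 75.3% GC, held no match to any of the 7 motifs, while a further EGFR window inside the gene held AP-1 and TATA matches. In the ERBB2 window 2 ETS matches began 27 and 14 bases before the RefSeq start, a motif found in 4.14% of all windows. Exons of ERBB2 and PGAP3 in GENCODE 29 cover that whole window, so these ETS matches lie in annotated exons. None of the scanned windows held the FOXO letters, which are in 3.42% of all windows. These matches describe letters only.

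The libraries held 16379416 to 19558484 counts assigned to genes, and 3 counts, the limit that a count of 0 allows, correspond to 0.132 to 0.204 CPM, the usual depth-scaled count, computed here with TMM factors between libraries. Such limits cover counting error only. Single libraries differed in ways that the groups do not explain. From the lowest to the highest decile of transcript GC content, the median log2 deviation of genes ran from 0.82 to -0.26 in FBS replicate 1. The opposite slope, -0.72 to 0.49, was seen in serum-starved replicate 1. In serum-starved replicate 3 it ran from 0.31 to -0.48, and it also ran from -0.54 to 0.48 from the shortest to the longest genes. Keratins KRT8, KRT18 and KRT7, the lineage factor PAX8 and mesothelin were present, but KRT19 had 5 counts in all, CDH1 was at or below 0.7 CPM on average in each group, and MUC16, SOX17 and EMX2 were at 0. Among markers of other cells, the leukocyte list summed to at most 0.440 CPM and 5 of 6 fibroblast genes stayed under 1 CPM in every library. COL1A1 averaged 489 ± 148 CPM in the FBS libraries and 796 ± 34.5 CPM in the serum-starved ones (SD, n = 3), while COL1A2, DCN and LUM had 0, 0 and 7 counts in all 6 libraries. The endothelial list summed to 0.610 to 0.834 CPM with FBS and to 1.65 to 4.55 CPM without serum, with VWF at 0.347 and 2.72 CPM on average. The part of COL1A1 or VWF in any result below was not tested.

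Which of these genes differ after 48 h without serum was asked with edgeR's quasi-likelihood test across 13772 genes, with Benjamini-Hochberg adjustment over all of them. None of the 9 members tested passed at an adjusted p of 0.05, a threshold that 0.283% of all genes passed (0.240% higher and 0.0436% lower without serum); EREG was below the count filter. At an unadjusted p under 0.05 the receptors ERBB3 and EGFR were higher without serum, 2 of 9, against 6.01% of all genes in that direction and 10.4% in either, and no member was lower, against 4.37%. DESeq2, which called 1.16% of all genes, called 1 member, ERBB3, and limma-voom, which called 0.276%, none. All 3 receptors had a log2 fold change above 0 and the ligands and inhibitors were split, 3 above and 3 below, while 48.5% of all genes lay above 0 and 51.5% below. In bulk RNA, fewer cells expressing a gene and less RNA of it per cell cannot be told apart. The median log2 fold change was 0.22 over the 9 members tested and -0.02 over all genes.

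**Figure D1:**
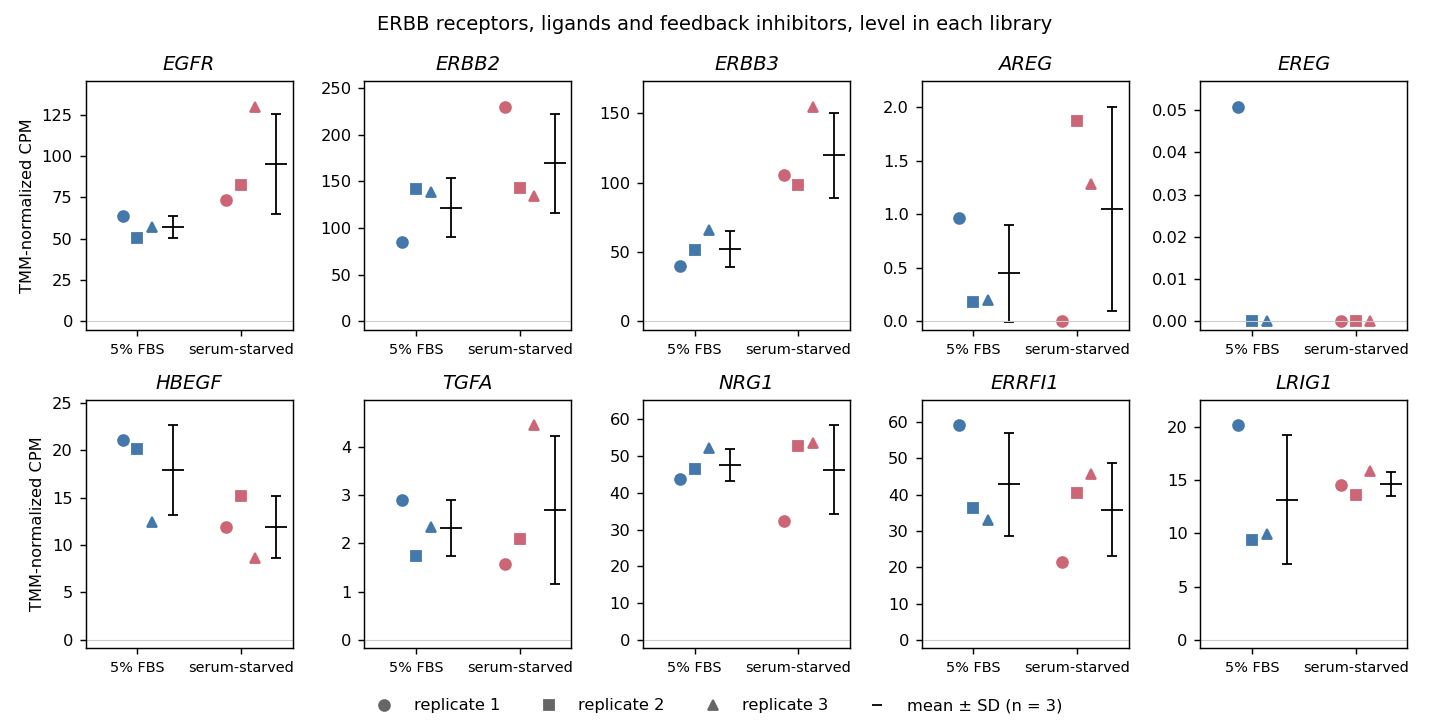
Level of each member in each library, in TMM-normalized CPM (linear axes from 0), with blue for 5% FBS and red for serum-starved, a marker shape for each replicate number and a bar for the mean ± SD of 3 libraries (none drawn for EREG, which has 1 count). For ERBB3 and EGFR the serum-starved libraries all lie above the FBS libraries; the other 8 members overlap.

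Among the receptors, ERBB3 (ENSG00000065361, chromosome 12, 56076799 to 56103505, GRCh38) showed the largest difference. It was at 39.5, 51.5 and 65.6 CPM in FBS replicates 1 to 3 and at 106, 98.1 and 155 CPM in the serum-starved ones. The groups did not overlap, and serum-starved replicate 3 was the highest; 10% of all genes tested lay higher without serum in this way, 7.65% lower and 17.7% in either direction, and 2 of the 9 members tested, both receptors, did. The ERBB3 means were 52.2 ± 13.1 and 120 ± 30.6 CPM (SD, n = 3), 2.29-fold. On the log2 scale the difference was 1.19 (standard error, SE, 0.31; 95% interval 0.55 to 1.84). The edgeR adjusted p was 0.153 (unadjusted p = 0.00106), and 94 of the 13772 genes had a smaller p. In DESeq2, which called 160 genes against 39 in edgeR, the log2 fold change of 1.20 had an adjusted p of 0.0194. ERBB3 also passed without a low-count filter, where 0.541% of genes did, and with a replicate block and GC and length correction together, where 1.13% did. Over all alternatives the adjusted p ran from 0.0194 to 0.987 and the log2 fold change from 0.76 to 1.41.

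EGFR (ENSG00000146648, chromosome 7, 55019021 to 55211628) followed ERBB3. Its levels were 63.6, 50.6 and 57.0 CPM with FBS and 73.5, 82.4 and 130 CPM without serum, in the order of the replicates. The groups did not overlap, but the distance between the nearest libraries was smaller than the spread inside the serum-starved group, where replicate 3 stood above the others. The means were 57.1 ± 6.52 and 95.3 ± 30.3 CPM (SD, n = 3), a log2 fold change of 0.74 (SE 0.30, 95% interval 0.11 to 1.37, edgeR adjusted p = 0.397). Without serum-starved replicate 3 the log2 fold change was 0.45 (edgeR adjusted p = 0.364), and after GC and length trends were removed within each library it was 0.40 (0.392). The corrected groups overlapped, with FBS replicate 1 at 74.7 CPM above serum-starved replicate 1 at 67.2 CPM. With that correction and without serum-starved replicate 3, the log2 fold change was 0.16 (SE 0.20, edgeR adjusted p = 0.765). EGFR is among the long genes of the table at 12521 bases, and serum-starved replicate 3 is the library with more counts in long genes; the part of that trend in the EGFR difference was not tested beyond these fits.

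ERBB2 (ENSG00000141736, chromosome 17, 39687914 to 39730426) did not separate the groups. It was at 85.1, 141 and 138 CPM with FBS and at 230, 143 and 134 CPM without serum. FBS replicate 1 was low and serum-starved replicate 1 high, and the other 4 libraries lay within 134 to 143 CPM of each other. The means were 122 ± 31.7 and 169 ± 52.8 CPM (SD, n = 3; log2 fold change 0.48, SE 0.32, 95% interval -0.19 to 1.14, edgeR adjusted p = 0.638). ERBB2 transcripts have a GC content of 59.4%, against a median of 50.7% over genes tested, and the libraries that stood out are those with the steepest GC trends in opposite directions. After the GC and length correction FBS replicate 1 was still the lowest library, at 111 CPM, and serum-starved replicate 1 the highest, at 177 CPM. The corrected log2 fold change was 0.16 (SE 0.20, edgeR adjusted p = 0.737). Without that correction, leaving out FBS replicate 1 gave 0.27, and leaving out serum-starved replicate 1 gave 0.21. The part of the GC trend in the ERBB2 difference was not tested beyond these fits. MIEN1 and PGAP3 overlap the span of ERBB2 on the other strand, with 2556 and 1216 counts beside 15214 for ERBB2. Without stated strand, reads in any stretch of shared exons could not be told apart. How much exon sequence is shared was not measured.

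For ERBB3 the same correction left the groups apart. The corrected levels were 44.6, 55.9 and 69.4 CPM with FBS and 101, 90.6 and 135 CPM without serum. They gave a log2 fold change of 0.95 (1.93-fold, SE 0.22, edgeR adjusted p = 0.0599), just outside the threshold, in a fit that called 0.879% of all genes. ERBB4, the other receptor of NRG1, had no count in any of the 6 libraries.

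**Figure D2:**
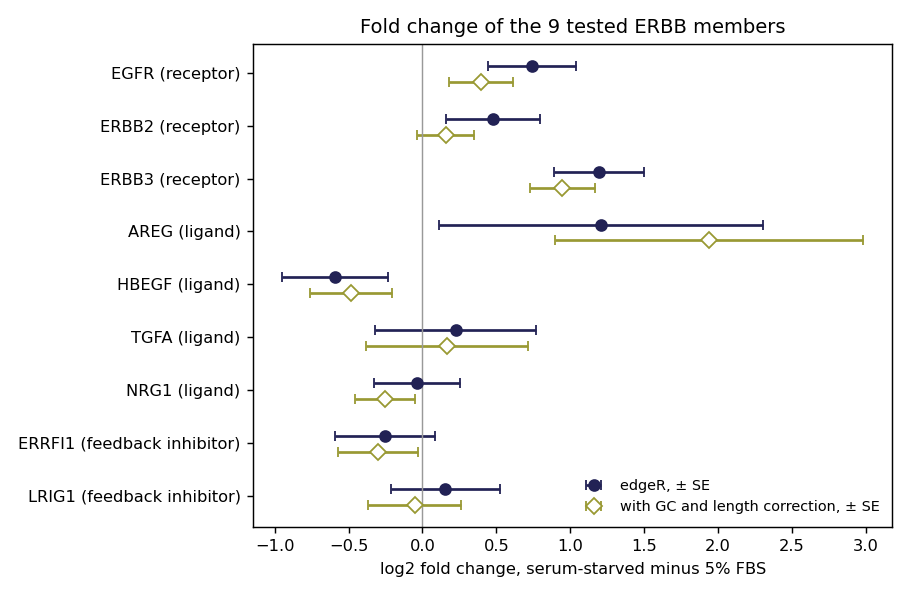
Log2 fold change, serum-starved minus 5% FBS, of the 9 tested members, with filled circles for edgeR on TMM-scaled counts and open diamonds after the GC and length correction; bars are ± SE. ERBB3 stands at 1.19 and 0.95, while EGFR moves from 0.74 to 0.40 and ERBB2 from 0.48 to 0.16.

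To compare levels between genes, counts were divided by gene length as well (CPM per kilobase). In this unit ERBB2 led with FBS at 11.8 ± 3.07, ERBB3 was at 5.78 ± 1.45 and EGFR at 4.56 ± 0.520 (SD, n = 3). Without serum ERBB2 was at 16.4 ± 5.12, ERBB3 at 13.2 ± 3.39 and EGFR at 7.61 ± 2.42. ERBB3 and EGFR overlapped with FBS and did not without serum, where ERBB2 and ERBB3 overlapped. These levels put ERBB3 above 64.3% of tested genes with FBS and above 77.5% without serum. As a share of the 3 receptors' summed level, ERBB3 made up 24.7, 24.3 and 28.8% in the FBS libraries and 29.4, 34.7 and 42.3% in the serum-starved ones. The share of ERBB2 averaged 52.7 ± 5.94% with FBS and 44.1 ± 11.9% without serum, and that of EGFR 21.3 ± 6.40% and 20.5 ± 5.47%. These shares do not depend on the scaling between libraries and were not tested. ERBB3 thus took a larger part of the receptor transcripts in each serum-starved library than in any FBS library, with the nearest pair at 28.8 and 29.4%.

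**Figure D3:**
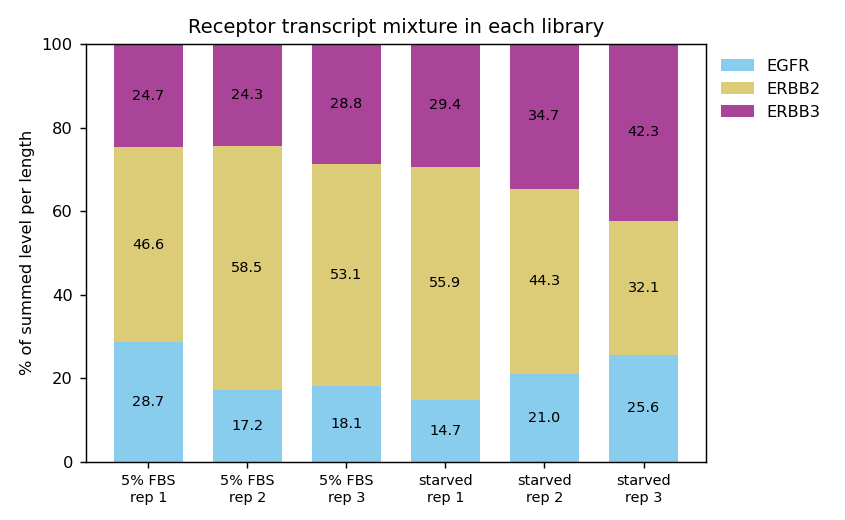
Share of EGFR, ERBB2 and ERBB3 in their summed level per length, in percent, as stacked bars for each of the 6 libraries. The ERBB3 segment is 24.3 to 28.8% with FBS and 29.4 to 42.3% in the serum-starved libraries.

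Among the ligands, NRG1 (ENSG00000157168, chromosome 8), the ligand of ERBB3, was the most abundant in CPM, which is not scaled by length. Per length with FBS, NRG1 averaged 4.19 ± 0.382, below HBEGF at 5.94 ± 1.57 (SD, n = 3), with overlap. In CPM, NRG1 was at 43.8, 46.4 and 52.3 with FBS and at 32.3, 52.9 and 53.7 without serum. The groups overlapped fully, with serum-starved replicate 1 the lowest library. The means were 47.5 ± 4.33 and 46.3 ± 12.1 CPM (SD, n = 3; log2 fold change -0.04, SE 0.29, 95% interval -0.65 to 0.58, edgeR adjusted p = 0.98). That interval includes changes in both directions, so an unchanged level was not shown.

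HBEGF (ENSG00000113070, chromosome 5, 140332843 to 140346631), a heparin-binding ligand of EGFR and ERBB4, leaned the other way from the receptors. Its levels were 21.1, 20.2 and 12.5 CPM with FBS and 11.9, 15.1 and 8.67 CPM without serum. FBS replicate 3 lay among the serum-starved libraries, so the groups overlapped. The means were 17.9 ± 4.73 and 11.9 ± 3.24 CPM (SD, n = 3), a log2 fold change of -0.59 (SE 0.36, edgeR adjusted p = 0.59) that ran from -0.81 to -0.30 over all alternatives without passing in any. Per length, HBEGF was at 5.94 ± 1.57 with FBS, next to ERBB3, and at 3.94 ± 1.07 without serum, next to NRG1 at 4.08 ± 1.07.

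The other EGFR ligands were scarce. TGFA (ENSG00000163235, chromosome 2, 70447280 to 70554193) was at 2.90, 1.73 and 2.34 CPM with FBS and 1.56, 2.09 and 4.45 CPM without serum. The groups overlapped, and the edgeR log2 fold change of 0.22 had an SE of 0.54 (adjusted p = 0.924). The highest library was serum-starved replicate 3, without which the log2 fold change was -0.35.

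AREG (ENSG00000109321, chromosome 4, 74445134 to 74455009), whose upstream sequence is printed above, had 19, 3 and 3 counts in the FBS libraries and 0, 34 and 29 in the serum-starved ones. The 2 serum-starved libraries with counts reached 1.87 and 1.28 CPM, and the library at 0 allows up to 0.204 CPM. Levels within the serum-starved group thus spanned more than those between groups, and the log2 fold change of 1.21 had an SE of 1.10 (edgeR adjusted p = 0.756). It was 2.45 when FBS replicate 1 was left out, 0.53 when serum-starved replicate 2 was, and 0.49 in limma-voom, none of which passed. EREG (ENSG00000124882, chromosome 4, 74365143 to 74388751), the neighbour of AREG, had 1 count over all 6 libraries. Of the remaining ligands, EPGN and NRG3 had no count, EGF, BTC and NRG4 had 29, 30 and 14 counts in all, and NRG2 was tested, with means of 3.01 ± 1.22 and 3.71 ± 1.03 CPM (SD, n = 3; edgeR adjusted p = 0.88).

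Of the feedback inhibitors, ERRFI1 (ENSG00000116285, chromosome 1, 8004404 to 8026308) was at 59.1, 36.5 and 33.0 CPM with FBS and at 21.4, 40.5 and 45.7 CPM without serum. The highest and the lowest library were replicate 1 of each group, and the others lay between them in both groups. The means were 42.9 ± 14.2 and 35.9 ± 12.8 CPM (SD, n = 3; edgeR log2 fold change -0.26, SE 0.34, adjusted p = 0.849), and the sign turned when FBS replicate 1 (0.04) or serum-starved replicate 1 (0.02) was left out.

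LRIG1 (ENSG00000144749, chromosome 3, 66378797 to 66501263) was at 20.1, 9.35 and 9.94 CPM with FBS and at 14.5, 13.6 and 15.9 CPM without serum. FBS replicate 1 lay above all other libraries and the other FBS libraries below all of them. The log2 fold change was 0.15 (SE 0.37, edgeR adjusted p = 0.923) and turned to -0.05 with the GC and length correction. SLC25A26 overlaps the span of LRIG1 on the other strand, with 3930 counts beside 1526 for LRIG1. Here too only reads in shared exons could be confused without stated strand, and the extent was not measured.

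Ratios between members inside a library need no scaling between libraries. For 6 pairs, chosen after the levels were seen and given with no test, the groups did not overlap in 2. Both have EGFR as the denominator and so are not independent, and EGFR itself separated the groups as measured. The share of other gene pairs that separate the groups was not computed. ERRFI1 stood to EGFR, its target, at 2.78, 2.16 and 1.73 per length with FBS and at 0.871, 1.47 and 1.05 without serum. ERBB3 stood to EGFR at 0.861, 1.41 and 1.6 with FBS and at 1.99, 1.65 and 1.65 without serum. The nearest libraries, at 1.6 and 1.65, lay closer together than those within the FBS group. With the GC and length correction the groups stayed apart for both ratios. ERRFI1 to EGFR was then at 1.6 to 2.38 against 1.04 to 1.46, and ERBB3 to EGFR at 0.827 to 1.55 against 1.65 to 2.09. The ratio of ERBB3 to ERBB2 overlapped as measured, at 0.416 to 0.542 with FBS and 0.526 to 1.32 without serum, and did not after the correction, at 0.443 to 0.547 and 0.655 to 1.14. The ratios of EGFR to ERBB2, NRG1 to HBEGF and LRIG1 to ERRFI1 overlapped in both forms.

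**Figure D4:**
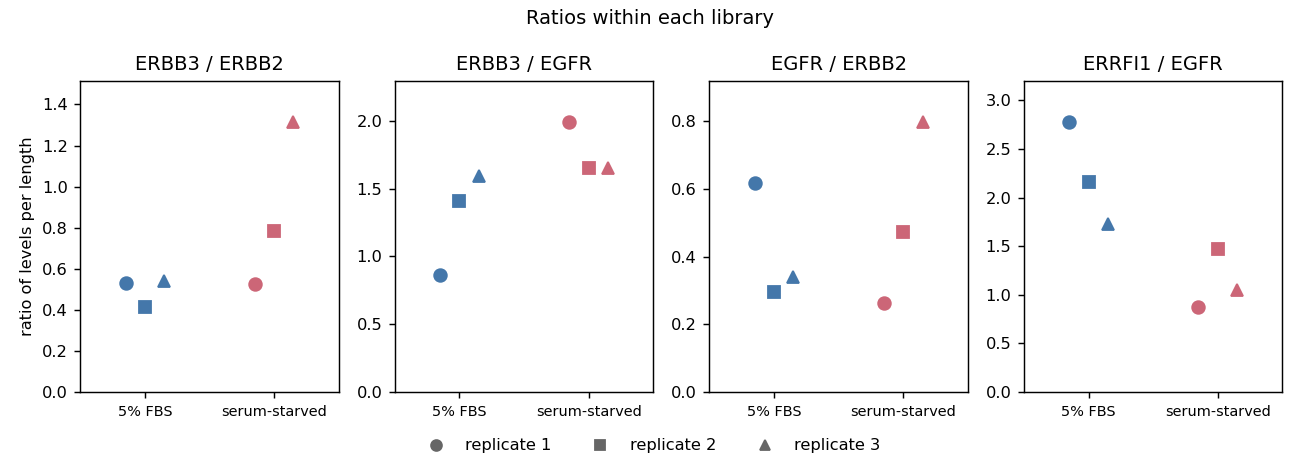
Ratio of levels per length of 4 pairs of members within each library (linear axes from 0), blue for 5% FBS and red for serum-starved, a marker shape for each replicate number. ERRFI1 to EGFR is 1.73 to 2.78 with FBS and 0.871 to 1.47 without serum; ERBB3 to EGFR is 0.861 to 1.6 and 1.65 to 1.99.

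Of 91 other genes of the pathway, 82 were tested and none passed in edgeR, DESeq2 or limma-voom. At an unadjusted edgeR p under 0.05, 2 were higher and 2 lower without serum, against 6.01% and 4.37% of all genes. The groups did not overlap for 4 higher and 4 lower genes of the 82, against 10% and 7.65% of all genes. The log2 fold change was above 0 in 43 and below 0 in 39 (median 0.05). Among the genes that shed ligands (10 tested, median 0.27), ADAM17, the main protease for AREG, HBEGF and TGFA, had means of 7.04 ± 0.962 and 13.6 ± 10.1 CPM (SD, n = 3, edgeR adjusted p = 0.481). The ADAM17 groups overlapped, with 25.1 CPM in serum-starved replicate 3 and 6.15 to 9.22 CPM in the other libraries. RHBDF2, which carries ADAM17 to the surface, was at 19.8 ± 6.16 and 30.7 ± 3.25 CPM (edgeR adjusted p = 0.506). Its groups did not overlap, with the nearest libraries at 26.8 and 27.3 CPM. BACE1, a protease that cuts NRG1, was at 6.15 ± 1.99 and 10.1 ± 3.21 CPM (edgeR adjusted p = 0.569).

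In the adaptor and PI3K list (17 tested, median 0.08) the smallest p belonged to PLCG1, the phospholipase recruited by EGFR, at 105 ± 21.3 and 163 ± 35.6 CPM (SD, n = 3; edgeR adjusted p = 0.469), followed by PTPN11, the phosphatase SHP2 (log2 fold change -0.56), and the adaptor GAB2 (0.40). In the list from RAS to ERK (14 tested, median -0.23) KSR1, a scaffold for RAF and MEK, was at 4.27, 7.51 and 6.43 CPM with FBS and 13.3, 12.1 and 15.2 CPM without serum. The groups did not overlap, and the log2 fold change of 1.16 (SE 0.37) had an edgeR adjusted p of 0.289. NRAS, a RAS GTPase, was at 106 ± 12.9 CPM with FBS and 64.7 ± 33.3 CPM in the serum-starved libraries (SD, n = 3), an edgeR log2 fold change of -0.71 (adjusted p = 0.487). Without serum-starved replicate 3, NRAS passed at a log2 fold change of -1.19 (edgeR adjusted p = 0.0226), in a fit that called 1.81% of all genes. NRAS passed in no other setting, and not when the GC and length correction was added to that fit.

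Among genes of receptor ubiquitination and endocytosis (18 tested, median -0.02), the endocytic adaptor EPN2 was at a log2 fold change of 0.62, the deubiquitinase USP8 at -0.81 and the ubiquitin ligase NEDD4 at -0.56, with edgeR adjusted p of 0.548, 0.576 and 0.704. The groups overlapped for each. USP8 was at 8.74 CPM in FBS replicate 1 and at 2.58 to 5.33 CPM in the other libraries. NEDD4 was at 18.1 CPM in FBS replicate 1 and at 6.32 to 8.98 CPM in the others. Among further negative regulators (12 tested, median -0.10), SOCS3, an inhibitor of cytokine receptor signalling, was at 28.2, 25.9 and 16.8 CPM with FBS and 13.5, 12.5 and 7.66 CPM without serum. Its groups did not overlap (log2 fold change -1.08, SE 0.35, edgeR adjusted p = 0.29). SOCS4, which targets EGFR, was at 6.45 ± 3.79 and 3.22 ± 0.228 CPM (SD, n = 3), an edgeR log2 fold change of -1.0 (adjusted p = 0.473), and the kinase TNK2 had a log2 fold change of 0.48 (0.626).

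The list of MAPK pathway output (10 tested), genes such as DUSP6, SPRY4 and ETV4 whose transcripts follow ERK activity in many cancer lines, had 5 members above 0 and 5 below and a median log2 fold change of -0.02. Its members ran from -0.29 to 0.45 and none passed. ETV5 was at 87.7 ± 8.07 and 120 ± 15.7 CPM (SD, n = 3; edgeR adjusted p = 0.592) and ETV4 at 110 ± 22.2 and 90.0 ± 22.1 CPM (0.791). DUSP6, the ERK phosphatase, was at 2.93 ± 2.22 and 3.15 ± 1.95 CPM (edgeR adjusted p = 0.973).

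The genes most like a member over the 6 libraries were found by the Pearson correlation of log2 CPM among 8873 protein-coding genes with a mean of at least 5 CPM over the 6 libraries, a description of 6 points that share library, depth and GC trends. For ERBB3 they were ZXDC (r = 0.994), ZSWIM4 (0.994) and SEC16A (0.993). All 3 were higher in each serum-starved library than in each FBS library, ZXDC at 30.3 to 38.4 CPM with FBS and 44.9 to 54.8 CPM without serum. Because they were chosen for following ERBB3, which itself separates the groups, this separation largely follows from the choice. Among all genes tested, 10% lay higher in this way. For HBEGF they were EVA1A (0.989), PABPN1 (0.983) and PDAP1 (0.979). For ERRFI1 they were STX16 (0.995), NFE2L2 (0.991), which encodes the stress factor NRF2, and UBXN2A (0.991), and like ERRFI1 they were highest in FBS replicate 1 and lowest in serum-starved replicate 1. This shared order, too, largely follows from the choice by correlation.

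**Figure D5:**
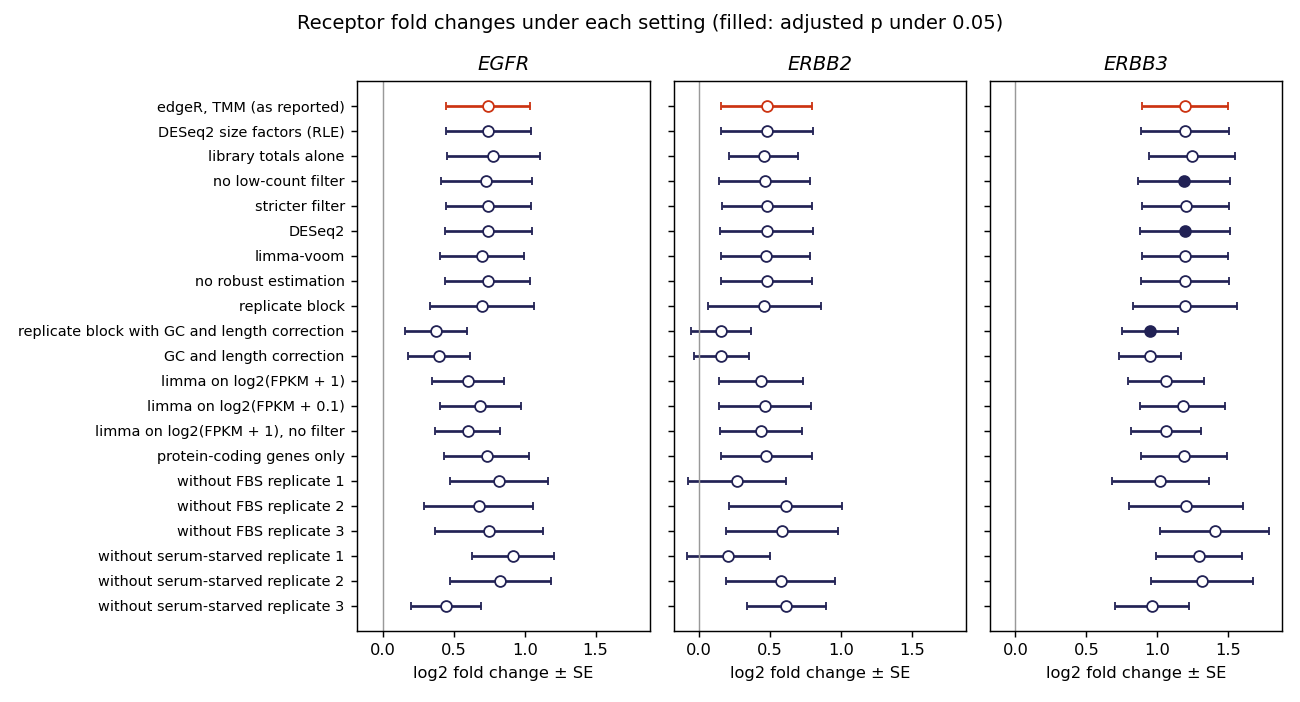
Log2 fold change ± SE of EGFR, ERBB2 and ERBB3, serum-starved minus 5% FBS, as reported (red) and under each of 20 other settings (blue); filled points have an adjusted p under 0.05. All values lie above 0; the filled points are ERBB3 with no low-count filter, in DESeq2 and with a replicate block and GC and length correction together.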

How the data were processed

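The labels describe RNA taken with Trizol and column cleanup with DNase, NEBNext Ultra II libraries and NovaSeq sequencing. The submitters' processing notes name STAR 2.6.1 and GRCh38. Which tool counted reads, and whether by strand, is not given in the sources consulted. The deposited tables give raw counts and, in a second table, FPKM values made by the authors, per the file headers. The deposited FPKM equal counts per length scaled with DESeq2 size factors (median ratio 1 in each library over genes with a mean above 20 counts).

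Genes were kept with filterByExpr (minimum count 10, minimum total 15) and tested with edgeR 4.0.16 (TMM, robust glmQLFit, glmQLFTest) in R 4.3.3, threshold 0.05, over all 6 libraries. The SE is the log2 fold change over the square root of F, and the 95% interval uses the fit's degrees of freedom. The biological coefficient of variation was 36.3%. Alternatives used DESeq2 1.42.0, limma 3.58.1, other scalings and filters, log2(FPKM + 1) and log2(FPKM + 0.1), a mean FPKM minimum of 0.5 or no filter, each library left out, a replicate block, and per-library splines (5 degrees of freedom each) on GENCODE 29 transcript GC content (known for 13768 genes tested) and gene length as offsets. The tests were checked on simulated data. No 2 libraries agreed within sampling noise (lowest chi-square per degree of freedom 25.4).

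Members and lists were chosen with earlier results of these data known. Named with values are all members, the remaining ERBB ligands and receptor, list genes that passed, up to 3 further genes per list with the smallest p, and the 3 genes most like a receptor, a ligand and an inhibitor. A gene that this rule took is not reported here. Markers, overlapping genes and further list members were named after their values were seen.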

Additional observations from a re-analysis of the deposited data

How the results depend on the processing

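Over the 26 alternatives, ERBB3, EGFR, ERBB2 and HBEGF kept their direction in all 26 and AREG in the 24 that tested it. The log2 fold change of EGFR ran from 0.16 to 0.92 and that of ERBB2 from 0.015 to 0.61. The lowest values, with SE of 0.20 each, lay within 1 SE of 0, so the direction alone says little for EGFR and ERBB2. No member passed in the reported fit. ERBB3 passed, as the 1 member called, without a low-count filter (log2 fold change 1.19, adjusted p = 0.0476), in DESeq2 (0.0194) and with the replicate block and the GC and length correction together (0.95, adjusted p = 0.0386); leaving out a library gave 0 members in each of the 6 fits. In the fits that left out a library the other pathway genes called ran from 0 to 1 (NRAS without serum-starved replicate 3); with the GC and length correction and without FBS replicate 3 the 1 gene called was SOCS3.

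The count over all genes, 39, was 25 with library totals alone, 127 without a filter, 160 in DESeq2, 121 with the GC and length correction, 155 with the replicate block and that correction, 22 and 19 on log2(FPKM + 1) and log2(FPKM + 0.1), and 0 on log2(FPKM + 1) without a filter (1534 genes at an unadjusted p under 0.05). It ran from 4 (without FBS replicate 1) to 257 (without serum-starved replicate 3) when a library was left out. Leaving out libraries under the correction was added after seeing the data and gave 24, 33 and 83 for FBS replicates 1 to 3 and 115, 68 and 97 for the serum-starved ones.

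Signs turned in members that never passed. Leaving out a library moved ERRFI1 from -0.47 to 0.043 (0.043 without FBS replicate 1, 0.02 without the first serum-starved library), LRIG1 from -0.032 to 0.59, NRG1 from -0.16 to 0.18 and TGFA from -0.35 to 0.52. NRG1 was at 0.0042 with library totals alone, 0.05 when FBS replicate 3 was left out and 0.18 when serum-starved replicate 1 was. TGFA was at -0.35 without serum-starved replicate 3, at -0.00013 with the replicate block and correction together, and with the correction at -0.061 (FBS replicate 2 left out) and -0.64 (serum-starved replicate 3 left out). LRIG1 was at -0.052 with the correction, -0.032 without FBS replicate 2 and -0.0038 without FBS replicate 3; with the correction it was at -0.26 and -0.24 without those libraries and at -0.051 and -0.13 without serum-starved replicates 1 and 3. The cause was not tested.

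Residuals of same-numbered libraries correlated at -0.22, 0.08 and -0.06, and those of differently numbered ones at -0.20 to 0.21. With 3 libraries per group, each with its own GC trend, this cannot show whether replicate numbers mark shared batches. With the replicate block alone 43 genes passed and ERBB3 had an adjusted p of 0.207.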

Other observations

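Across the 6 libraries ERBB2 and ERRFI1 ran in opposite order, with a Pearson correlation of log2 CPM of -0.95 over 6 points that share depth and GC trends. ERBB2 was lowest and ERRFI1 highest in FBS replicate 1, and ERBB2 highest and ERRFI1 lowest in serum-starved replicate 1. Transcript GC content is 59.4% for ERBB2 and 49.8% for ERRFI1. The GC and length correction removed a log2 deviation of -0.38 in FBS replicate 1 and of 0.38 in serum-starved replicate 1 from ERBB2, and of -0.0048 and -0.12 from ERRFI1. After it ERRFI1 still spanned 23.3 CPM in serum-starved replicate 1 to 59.3 CPM in FBS replicate 1, beyond the difference between its group means of 43.2 and 35.0 CPM.

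Picked from all pairs of tested members, AREG followed ERRFI1 (r = 0.87) and ERBB3 followed EGFR (r = 0.84), while HBEGF ran against ERBB3 (r = -0.90), each over the same 6 libraries. AREG had 0 counts in serum-starved replicate 1. Its log2 deviation there, -3.55, was set by the small value added to each count. The correlations with ERBB3 also carry the group differences given above.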
